A study of Mus musculus with 18 samples.

Results

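Regulators of neuromesodermal progenitors and of the neural plate were followed in mouse embryos labelled as conditionally mutant for Meis1 and Meis2, and in controls. The genes, 8 in all, were T (Brachyury), Nkx1-2, Sp5 and Sp8, which are known from the axial bud, and the SoxB genes Sox1, Sox2, Sox3 and Sox21, which are known from the neural tube. They were chosen by symbol, with earlier results of these data known. All 8 were found among the 53465 Ensembl genes of the table and passed the filter on low counts in every comparison. The RNA came from 9 embryos at embryonic day 9 with 20 to 24 somites. Each embryo was divided into a posterior piece, which held the axial bud and the newest somites, and an anterior piece, which held the rest of the somite-bearing axis. Regions ahead of the first somite were not part of either piece.

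The embryos were of 2 genotypes, 5 labelled Control and 4 labelled DKO. The DKO label stands for deletion of Meis1 and Meis2, which encode homeodomain partners of Hox proteins, by Delta1Cre. Delta1 (Dll1) is a Notch ligand of the presomitic mesoderm and of differentiating neurons, and cells without Cre activity keep both genes. Which alleles or Cre the controls carried was not given in the sources used here. Each region therefore had 5 control libraries and 4 DKO libraries, 18 in all. The 2 pieces of an embryo were matched on genotype, sex label and somite number, which gave 9 pairs, and embryos were numbered within each genotype.

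Library totals ranged from 12.7 to 38.2 M expected counts. Levels are given as CPM, counts relative to 1 M counts of the scaled library total, and 3 counts corresponded to 0.0791 to 0.233 CPM. Control 1 carries a female label, but its 2 libraries showed Xist of 0.211 and 0.340 CPM and a summed level of Y-linked genes (Ddx3y, Eif2s3y, Kdm5d and Uty) of 151 to 162 CPM, as the male-labelled libraries did (126 to 175 CPM). Among the labels, only that of sex separates control 1 from control 5, both with 23 somites, and their pieces were paired by it. Over genes, the deviations from group means correlated at 0.256 to 0.570 in all 9 pairs. They correlated at −0.283 to 0.0916 between pieces of different embryos of a genotype. Comparisons with controls were also run without control 1, and those with the embryo as a block also without both, the latter chosen after the values had been seen. Of the 8 genes, 8 were called between the regions of controls in both cases, against 19% of all genes without control 1 and 22.2% in the blocked fit without both. Without control 1, 0 of the 8 were called between genotypes in either region, against 0.0461% of genes in the anterior and 0.0192% in the posterior pieces. Meis1 ranged from 113 to 135 CPM in anterior controls and from 89.8 to 111 CPM in anterior DKO libraries, and from 59.6 to 99.9 and 46.7 to 72.0 CPM in the posterior pieces. Meis2 ranged from 177 to 203 and 130 to 157 CPM in the anterior pieces, and from 117 to 162 and 91.2 to 116 CPM in the posterior pieces. Both deleted genes were lower in DKO, with overlap only for posterior Meis1, and no difference passed the threshold (adjusted p from 0.0522 to 0.336, edgeR). A count per gene gives no view of which exons the reads came from.

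Neuromesodermal progenitors are bipotent cells of the axial bud that give rise to both spinal cord and paraxial mesoderm while the body lengthens. They are recognised by joint expression of T, a T-box factor needed for mesoderm, and Sox2, an HMG-box factor that maintains neural progenitors. Wnt and FGF signals keep them in the bud, Sp5 and Sp8 are zinc-finger factors that act with Wnt signalling there, and Nkx1-2 is a homeobox gene of the same region. Cells that leave for the spinal cord lose T and Nkx1-2 and keep SoxB1 factors (Sox1, Sox2 and Sox3), while Sox21, a SoxB2 factor, is known to oppose SoxB1 and to favour neuronal differentiation. Retinoic acid, made by somites, is known to promote that step.

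Levels of different genes were compared per kilobase of annotated exon. In the posterior controls, Sox2 (46.3 ± 1.99 CPM per kb, SD, n = 5) and T (41.3 ± 9.75) were the highest and overlapped. They were followed by Sox3 (21.5 ± 3.77) and Nkx1-2 (16.3 ± 4.54), which also overlapped, and then by Sp8 (7.96 ± 1.44), Sp5 (7.59 ± 2.27), Sox1 (6.64 ± 0.609) and Sox21 (4.10 ± 0.878). Sp8, Sp5 and Sox1 overlapped each other, and Sox21 overlapped Sp5 but not Sp8 or Sox1. In the anterior controls the order was Sox2 (75.2 ± 9.16 CPM per kb), Sox3 (34.4 ± 3.12), Sox1 (11.2 ± 1.49), Sox21 (7.16 ± 0.949), Sp8 (4.45 ± 0.485), Sp5 (3.73 ± 0.714), Nkx1-2 (2.16 ± 0.726) and T (1.79 ± 0.289). Here Sp8 overlapped Sp5, Sp5 overlapped Nkx1-2, and Nkx1-2 overlapped T. Per length, Sox2 exceeded T by a factor of 36.7 to 51.4 in the anterior controls, and the ratio was 0.769 to 1.36 in the posterior controls. The ratio of Sox2 to Sox1 stayed between 6.34 and 7.66 over both regions of the controls. In bulk pieces, fewer cells of a type and less RNA per cell cannot be told apart.

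The comparison of the pieces asked how each gene is distributed along the axis. In controls all 8 genes passed the threshold (adjusted p below 0.05 over all genes, edgeR), T, Nkx1-2, Sp5 and Sp8 being higher and the 4 Sox genes lower in the posterior piece. Over all 15294 genes tested, 25.4% passed, 12.1% higher and 13.3% lower. All 8 calls were made in each of the 10 alternatives run. The regions did not overlap for 8 of the 8 genes, against 20.1% of all genes. The same comparison in the DKO embryos called 7 of the 8 genes in the same directions, against 18.5% of 15777 genes (8.76% higher and 9.7% lower), and Sp5 was the gene that did not pass. In DKO the regions did not overlap for 7 of the 8, against 23.5% of all genes.

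T (ENSMUSG00000062327, chromosome 17, 8434423 to 8442496, plus strand, GRCm38) had the largest difference. In control embryos 1 to 5 its level was 4.42, 4.45, 2.96, 4.37 and 4.54 CPM in the anterior pieces and 83.0, 136, 85.3, 90.4 and 83.3 CPM in the posterior pieces. In DKO embryos 1 to 4 it was 5.03, 3.60, 5.60 and 4.49 CPM in the anterior and 102, 83.7, 134 and 101 CPM in the posterior pieces. Every posterior library lay far above every anterior one, and control 2 and DKO 3 were the highest posterior libraries. T was 22.8-fold higher in the posterior piece of controls (log2 fold change 4.51, SE 0.168, adjusted p = 9.59e-09) and 22.4-fold higher in DKO embryos (4.49, SE 0.172, adjusted p = 2.77e-07). T is also a gene of the notochord, which runs through both pieces. Noto, a node and notochord gene of the tail end, was at or under 3 counts in every anterior library and at 3.27 to 5.10 CPM in posterior controls.

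Nkx1-2 (ENSMUSG00000048528, chromosome 7, 132594878 to 132599637, minus strand) followed T. Its anterior levels were 6.40, 10.3, 3.73, 7.13 and 7.71 CPM in controls and 11.04, 7.001, 13.8 and 9.02 CPM in DKO. Its posterior levels were 47.4, 75.4, 36.3, 47.3 and 58.9 CPM in controls and 54.2, 41.9, 81.3 and 46.7 CPM in DKO. The regions did not overlap in either genotype, and control 2 and DKO 3 were again the highest of their groups in both regions. The posterior level was 7.37-fold higher in controls (log2 fold change 2.88, SE 0.240, adjusted p = 2.73e-06) and 5.50-fold higher in DKO embryos (2.46, SE 0.244, adjusted p = 8.02e-05). The gene lies inside an Fgfr2 transcript model on the same strand without sharing exons. An antisense model on the other strand, Gm16764, shares 541 bp with it and was at most 0.374 CPM in any library.

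**Figure D1:**
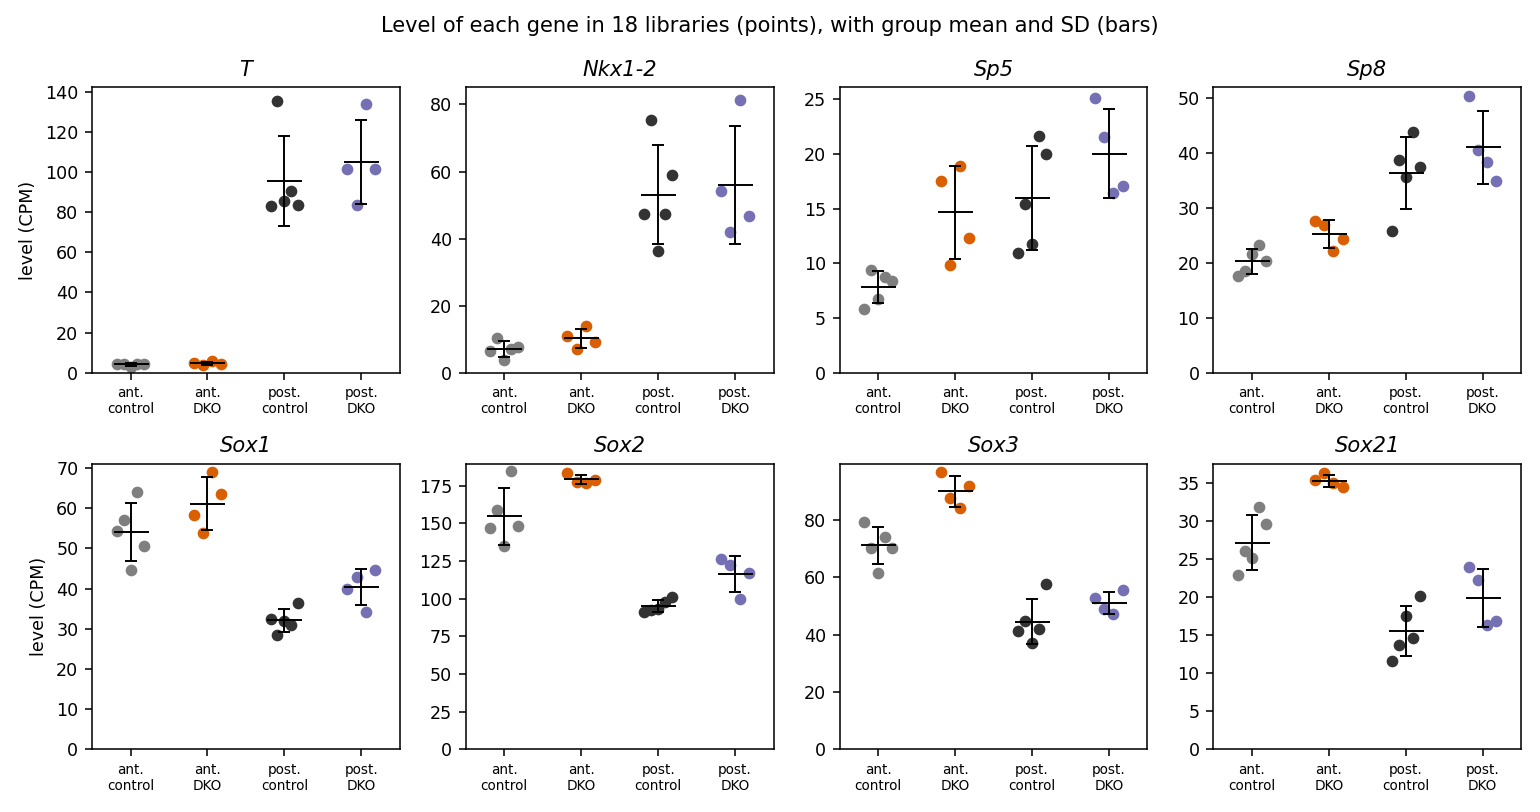
Level in CPM (vertical axes, linear from 0) of the 8 genes in the 18 libraries, by region and genotype. Points are embryos and bars are the group mean and SD. T and Nkx1-2 separate the regions by the most, and in the anterior pieces the DKO points of Sp5, Sox3 and Sox21 lie above all controls.

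Sp5 (ENSMUSG00000075304, chromosome 2, 70474923 to 70477729, plus strand) and Sp8 (ENSMUSG00000048562, chromosome 12, 118846329 to 118852576, plus strand) differed less between the pieces. Sp5 was at 5.78, 9.37, 6.77, 8.79 and 8.42 CPM in the anterior and 10.9, 15.4, 11.8, 21.6 and 20.0 CPM in the posterior controls. In DKO embryos it was at 17.5, 9.88, 18.9 and 12.3 CPM in the anterior and 25.1, 21.5, 16.4 and 17.1 CPM in the posterior pieces. The regions were separate in controls (2.02-fold higher, log2 fold change 1.02, SE 0.204, adjusted p = 0.00261) and overlapped in DKO (0.46, SE 0.214, adjusted p = 0.192, from 0.0824 to 0.478 over its alternatives). Without DKO 2 this value was 0.28 and without DKO 3 it was 0.68. DKO 3 was the only embryo of the 9 in which Sp5 was lower in the posterior than in the anterior piece. Sp8 was at 17.7, 18.6, 21.5, 23.2 and 20.3 CPM in the anterior and 25.9, 38.7, 35.7, 43.9 and 37.4 CPM in the posterior controls. The DKO values of Sp8 were 27.7, 26.8, 22.2 and 24.3 CPM in the anterior and 50.3, 40.5, 38.4 and 34.9 CPM in the posterior pieces. No anterior Sp8 value reached the posterior values of its genotype, and the posterior level was 1.79-fold higher in controls (log2 fold change 0.84, adjusted p = 0.000326) and 1.63-fold higher in DKO (0.70, adjusted p = 0.00202). Sp8 is also expressed in limb ectoderm and parts of the neural tube, and the pieces were not sorted.

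Promoter windows of 300 bases (250 before and 50 from the start site on, RefSeq, GRCm38.p6) were available here for 7 of the 8 genes, with 9 windows in all because Sp8 has 3, and no window of Sox3. They were searched on both strands for 5 short motifs: CTTTGA (TCF/LEF, the transcription factors of Wnt signalling), TGACAG (Meis), ACAATG (Sox), AGGTGTGA (T-box) and the retinoic acid response element, AGGTCA repeated after a gap of 5 bases. CTTTGA was found in 4 of the 9 windows (T, Sp5, Sp8 and Sox21), against 16% of 32851 promoter windows, and Sp5 held it 2 times. TGACAG was found in 2 of the 9 (Sp8 and Sox2), against 19.2% of all windows, and ACAATG in 1 (Sp8), against 12.6%. The T-box and retinoic acid motifs were in none of the 9, against 1.28% and 0.00913% of all windows. A match is a description of the letters, not evidence of binding. The windows of T and Sp5 are shown for CTTTGA and the first of Sp8 and that of Sox2 for TGACAG, on the plus strand, with the matches on either strand in capitals. They span chr17:8434173-8434472, chr2:70474673-70474972, chr12:118846079-118846378 and chr3:34649745-34650044, the last lying before the GENCODE start of Sox2.
T: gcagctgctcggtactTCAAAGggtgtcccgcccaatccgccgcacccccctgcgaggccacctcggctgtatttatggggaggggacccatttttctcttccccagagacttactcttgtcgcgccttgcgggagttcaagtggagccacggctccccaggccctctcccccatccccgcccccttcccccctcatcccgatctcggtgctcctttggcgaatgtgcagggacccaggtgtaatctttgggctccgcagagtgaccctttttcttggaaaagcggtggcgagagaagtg
Sp5: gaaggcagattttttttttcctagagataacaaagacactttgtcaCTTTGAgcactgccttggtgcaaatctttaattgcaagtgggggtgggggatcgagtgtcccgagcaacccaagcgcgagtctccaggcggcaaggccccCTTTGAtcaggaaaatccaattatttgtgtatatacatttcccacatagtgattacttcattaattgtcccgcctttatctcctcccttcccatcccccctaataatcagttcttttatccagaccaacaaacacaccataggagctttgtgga
Sp8: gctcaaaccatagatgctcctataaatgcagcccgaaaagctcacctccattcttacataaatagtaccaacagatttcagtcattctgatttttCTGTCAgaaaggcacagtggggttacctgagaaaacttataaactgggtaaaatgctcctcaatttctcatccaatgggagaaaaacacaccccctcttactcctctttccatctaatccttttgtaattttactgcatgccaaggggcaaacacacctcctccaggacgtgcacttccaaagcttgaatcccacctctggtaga
Sox2: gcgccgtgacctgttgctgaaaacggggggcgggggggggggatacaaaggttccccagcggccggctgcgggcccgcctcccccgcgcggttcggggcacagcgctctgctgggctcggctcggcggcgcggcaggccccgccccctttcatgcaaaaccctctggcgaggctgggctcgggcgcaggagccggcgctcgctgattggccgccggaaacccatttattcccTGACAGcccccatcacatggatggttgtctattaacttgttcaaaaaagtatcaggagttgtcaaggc

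The SoxB genes were lower in the posterior piece, by similar factors. Sox2 (ENSMUSG00000074637, chromosome 3, 34650405 to 34652461, plus strand) was at 147, 159, 135, 185 and 148 CPM in the anterior and 91.3, 92.6, 93.0, 98.1 and 101 CPM in the posterior controls. In DKO embryos it was at 184, 177, 177 and 179 CPM in the anterior and 127, 123, 99.7 and 117 CPM in the posterior pieces. The regions did not overlap, and the log2 fold change was −0.70 (SE 0.0733, adjusted p = 1.68e-05) in controls and −0.62 (SE 0.0758, adjusted p = 0.000291) in DKO. Sox1 (ENSMUSG00000096014, chromosome 8, 12395295 to 12400126, plus strand), a gene of committed neural progenitors, was at 54.4, 57.1, 44.7, 64.0 and 50.5 CPM in the anterior and 32.5, 28.4, 32.0, 31.0 and 36.5 CPM in the posterior controls. Its DKO values were 58.4, 53.8, 69.0 and 63.5 CPM in the anterior and 39.8, 43.0, 34.3 and 44.5 CPM in the posterior pieces. The regions were again separate, with log2 fold changes of −0.76 (adjusted p = 5.40e-05) and −0.59 (adjusted p = 0.00185).

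Sox3 (ENSMUSG00000045179, chromosome X, 60891366 to 60893430, minus strand), the third SoxB1 gene, was at 79.3, 70.3, 61.6, 73.9 and 70.3 CPM in the anterior and 41.1, 44.7, 37.1, 41.9 and 57.5 CPM in the posterior controls. In DKO embryos it was at 96.5, 87.6, 84.0 and 91.9 CPM in the anterior and 52.6, 48.8, 47.3 and 55.7 CPM in the posterior pieces. The log2 fold change between regions was −0.68 (adjusted p = 0.000391) in controls and −0.81 (adjusted p = 3.31e-05) in DKO, without overlap. Sox21 (ENSMUSG00000061517, chromosome 14, 118233232 to 118237030, minus strand) was at 22.9, 26.1, 25.2, 32.0 and 29.7 CPM in the anterior and 11.7, 13.8, 17.6, 14.7 and 20.2 CPM in the posterior controls. Its DKO values were 35.5, 36.3, 35.0 and 34.6 CPM in the anterior and 24.0, 22.3, 16.4 and 16.9 CPM in the posterior pieces. The difference between regions was −0.81 in controls (adjusted p = 0.000998) and −0.82 in DKO (adjusted p = 0.00109). Sox21 shares 713 bp of exon with Gm4675 on the opposite strand, and whether the counting used the strand is not given in the sources used here. Gm4675 itself was at 0.524 to 2.33 CPM over the 18 libraries.

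Other genes of the same tissues were read from lists fixed by symbol, also with earlier results of these data known. Of all genes tested in controls, 12.1% passed as higher and 13.3% as lower in the posterior piece. In controls 15 of 16 axial bud genes passed the threshold with a higher level in the posterior piece (median log2 fold change of the list 3.32, against −0.01 over all genes tested). Cdx4 and Msgn1 had the largest differences, with 50.1 to 128 and 10.9 to 27.6 CPM in posterior controls and at most 8 and 2 counts in an anterior control library. Of 18 neural progenitor genes, 16 passed with a lower level in the posterior piece (median −1.39), with Nkx6-2 at −3.14 and Dbx1 at −3.06, both homeobox genes of the ventricular zone, and Hes3 was higher (1.50, SE 0.230, adjusted p = 0.000389). Of 12 genes of neurons, 11 passed as lower (median −2.50), among them Dcx (−3.67), a microtubule protein of young neurons, and Isl1 was higher (1.10). The differences of the SoxB genes (−0.68 to −0.81) lay within the range of the neural progenitor list. Sox2 stood at 149 to 193 CPM for each 1000 CPM of the summed neural progenitor list in posterior controls, against 116 to 142 in anterior controls. Of 10 Wnt target genes, 6 passed as higher in the posterior piece (median 0.45), led by Dkk1 (3.51), an inhibitor of Wnt signalling, and Rnf43 (2.25), which encodes a ubiquitin ligase that removes Wnt receptors. Of the nearest relatives of the 8 genes, Sp6 was higher (1.13, adjusted p = 0.000472), and Nkx1-1 and Tbx19 were at or under 3 counts in every library.

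Whether the regional difference itself changed with genotype was asked within embryos. Nkx1-2 was higher in the posterior piece by 2.71 to 3.25 on the log2 scale in the 5 control embryos and by 2.29 to 2.57 in the 4 DKO embryos, and the genotypes did not overlap. Over all genes 1.7% had genotypes that did not overlap in this way, 0.724% with the DKO lower. For Sp5 the differences were 0.71 to 1.29 in controls and −0.20 to 1.12 in DKO. For T they were 4.17 to 4.90 and 4.31 to 4.56. The other 5 genes overlapped as well.

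**Figure D2:**
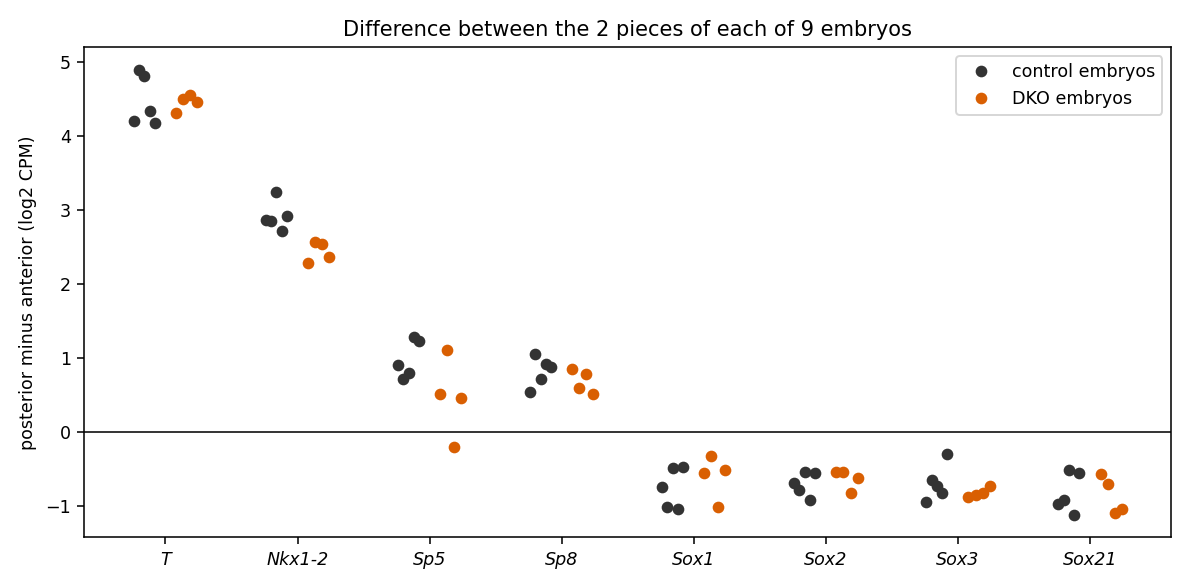
Posterior minus anterior level (vertical axis, log2 CPM) of each gene in the 5 control and 4 DKO embryos, 1 point per embryo. T, Nkx1-2 and Sp8 lie above 0 in all 9 embryos and the Sox genes below 0 in all 9, and for Nkx1-2 the 2 genotypes do not overlap.

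None of the 8 genes passed the threshold in the interaction of region and genotype with edgeR (0 of 8, against 0% of 16428 genes), none had an unadjusted p below 0.05 (3.45% of genes), and DESeq2 also called 0 of 8 (0.0609% of genes). The largest interactions were those of Sp5 (log2 −0.56, SE 0.317, adjusted p = 0.999) and Nkx1-2 (−0.43, SE 0.364, adjusted p = 0.999). With the embryo as a block, the unadjusted p was 0.000963 for Nkx1-2 (−0.47, adjusted p = 0.608) and 0.0373 for Sp5 (−0.52, adjusted p = 0.851), where 5.23% of all genes had an unadjusted p below 0.05. Without controls 1 and 5 the blocked values were −0.48 for Nkx1-2 (unadjusted p = 0.00660) and −0.47 for Sp5 (unadjusted p = 0.114), each with an adjusted p of 1, where 3.19% of all genes had an unadjusted p below 0.05. The 95% interval (normal quantile times SE) of the interaction of T reached from −0.51 to 0.46 and that of Sox2 from −0.13 to 0.30, in the fit without the embryo block.

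The comparison of DKO with control in the anterior pieces asked whether deletion of Meis1 and Meis2 by Delta1Cre changed these genes where the somites differentiate. All 8 had a higher mean in DKO, with a median log2 fold change of 0.33 against 0.00 over all genes tested, and 50% of all genes had a positive value. None passed the threshold (edgeR, 0 of 8, against 0.0394% of 15238 genes). An unadjusted p below 0.05 with a higher level was found for 5 of the 8 (Sp5, Sp8, Sox2, Sox3 and Sox21), against 6.41% of all genes. The DKO libraries lay above every control for 3 of the 8 (Sp5, Sox3 and Sox21), against 2.45%. DESeq2 called those 3, and 1.94% of all genes.

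Sp5 had the largest difference, with 7.83 ± 1.50 CPM in anterior controls (SD, n = 5) and 14.7 ± 4.27 CPM in anterior DKO (n = 4). The log2 difference was 0.90 (SE 0.202, adjusted p = 0.120, edgeR). The lowest DKO library (DKO 2, 9.88 CPM) lay just above the highest control (control 2, 9.37 CPM). The adjusted p of anterior Sp5 ranged from 0.00215 to 0.446 over its 14 alternatives and was below the threshold in 4 of them. These were DESeq2, no filter on low counts (0.0433), somite number as a covariate (0.0285) and the fit without DKO 2 (0.0467). Sox3 stood at 71.1 ± 6.44 and 90.0 ± 5.39 CPM, a log2 difference of 0.34 (SE 0.0678, adjusted p = 0.0881), and was called with DESeq2 (0.000977) and without the filter (0.0362). Sox21 stood at 27.2 ± 3.60 and 35.4 ± 0.765 CPM (0.38, SE 0.0883, adjusted p = 0.128), and was called with DESeq2 (0.00853). The 4 DKO values of Sox21 spanned 34.6 to 36.3 CPM, and the highest control (control 4) was at 32.0 CPM.

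The other anterior differences overlapped. Sox2 was at 155 ± 18.8 CPM in controls and 179 ± 3.05 CPM in DKO (log2 fold change 0.21, SE 0.0771, adjusted p = 0.289), with control 4 above all DKO libraries. Sp8 was at 20.3 ± 2.21 and 25.2 ± 2.51 CPM (0.32, SE 0.0968, adjusted p = 0.216), with control 4 inside the DKO range. Nkx1-2 had 0.51 (SE 0.256, adjusted p = 0.428), Sox1 had 0.17 (SE 0.0984, adjusted p = 0.504) and T had 0.17 (SE 0.169, adjusted p = 0.722). For T and Nkx1-2, DKO 3 was the highest anterior library and control 3 the lowest.

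**Figure D3:**
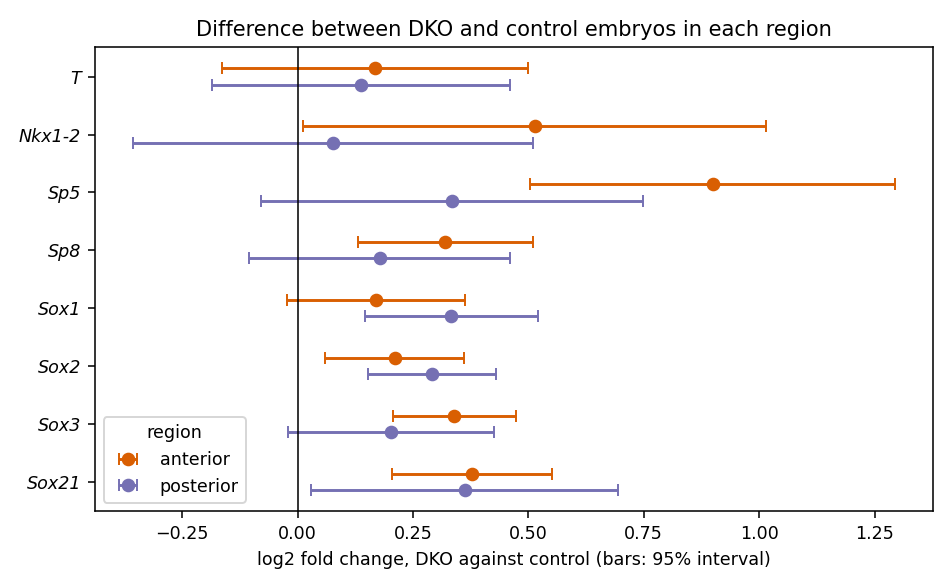
Log2 fold change of DKO against control (horizontal axis) for each of the 8 genes in the anterior and posterior pieces. Bars are 95% intervals from the normal quantile times SE. They are narrower than the edgeR test implies. The bars of anterior Nkx1-2 and posterior Sox21 exclude 0 at unadjusted p of 0.0700 and 0.0557 (edgeR). All 16 values lie above 0, and the anterior value of Sp5 is the largest at 0.90.

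In the posterior pieces the same comparison addressed the axial bud, where the progenitors reside. All 8 genes again had a higher mean in DKO, with a median log2 fold change of 0.25 against 0.01 over all genes, of which 52.4% had a positive value. None passed the threshold (edgeR, 0 of 8, against 0.0126% of 15936 genes), 2 had an unadjusted p below 0.05 with a higher level (Sox1 and Sox2, against 5.27% of genes), and DESeq2 called 1 (Sox2) and 1.01% of all genes. No gene of the 8 had groups that did not overlap, against 4.29% of all genes.

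Posterior Sox2 stood at 95.2 ± 4.10 CPM in controls (SD, n = 5) and 116 ± 11.9 CPM in DKO (n = 4). The log2 difference was 0.29 (SE 0.0704, adjusted p = 0.252 with edgeR and 0.0289 with DESeq2). The overlap came from DKO 3 at 99.7 CPM and control 5 at 101 CPM. Sox1 stood at 32.1 ± 2.94 and 40.4 ± 4.52 CPM (0.33, SE 0.0960, adjusted p = 0.342), with DKO 3 again inside the control range. Sox21 had 0.36 (SE 0.170, adjusted p = 0.462), Sp5 had 0.33 (SE 0.211, adjusted p = 0.536) and Sox3 had 0.20 (SE 0.114, adjusted p = 0.502). The progenitor genes had small differences with wide 95% intervals, T 0.14 (−0.18 to 0.46) and Nkx1-2 0.08 (−0.36 to 0.51). T had 0.00051 without DKO 3 and 0.30 without control 2, the 2 embryos with 20 somites. Without DKO 3 the posterior difference of Nkx1-2 was −0.15 and without control 3 it was −0.03. Sp8 had 0.18 (SE 0.144, adjusted p = 0.613) and 0.07 without control 1, the embryo whose sex label did not match, and 0.06 without DKO 1. Per length, the ratio of Sox2 to T was 0.769 to 1.36 in posterior controls and 0.837 to 1.65 in posterior DKO libraries, so these ranges overlapped.

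Markers of the tissues in the pieces were read beside these values. In the anterior pieces 16 of 18 neural progenitor genes had a higher mean in DKO (median log2 fold change 0.26). Of these 18, 1 passed the threshold, against 0.0394% of all genes. An unadjusted p below 0.05 with a higher level was found for 9, against 6.41% of all genes. The gene that passed was Hes5, a Notch target of neural progenitors, which rose from 51.8 ± 4.01 to 82.1 ± 12.0 CPM (0.66, adjusted p = 0.0455). The call of Hes5 was lost when any 1 control, DKO 1 or DKO 3 was left out (0.58 to 0.71, adjusted p from 0.0514 to 0.162). In the posterior pieces 17 of the 18 genes had a higher mean in DKO (median 0.33), and none passed the threshold. An unadjusted p below 0.05 with a higher level was found for 2, against 5.27% of all genes. Hes5 had 0.69 there (adjusted p = 0.196) without overlap between the groups. The summed level of that list was 1117 to 1339 CPM in anterior controls and 1339 to 1535 CPM in anterior DKO, and in the posterior pieces it was 479 to 654 and 568 to 788 CPM. Of 10 paraxial mesoderm genes, 8 had a lower mean in the anterior DKO (median of the list −0.43). An unadjusted p below 0.05 was found for 7 of them, and for 1 other with a higher level. Over all genes 1983 of 15238 had such a p in either direction. Aldh1a2, which makes retinoic acid, was at −0.97 (adjusted p = 0.0641). In the posterior DKO 0 of the 10 had a higher mean (median −0.53). There 5 had an unadjusted p below 0.05 with a lower level, against 1754 of 15936 genes in either direction. The summed level of the paraxial list was 495 to 626 CPM in anterior controls and 312 to 419 CPM in anterior DKO, and 537 to 717 against 331 to 573 CPM in the posterior pieces. No gene of either list was at or under 3 counts throughout a group. The part of these tissue markers in the differences of the 8 genes was not tested. Set against 1000 CPM of the neural progenitor list, Sox3 stood at 52.9 to 62.9 in anterior controls and 61.0 to 65.7 in anterior DKO, and Sox21 at 18.1 to 24.3 and 23.1 to 26.1, so both overlapped. Sp5 on the same scale was at 4.55 to 8.39 (median 6.57) and 6.88 to 14.1 (median 10.1), which overlapped as well. The medians of Sox3, Sox21 and Sp5 were still higher in DKO. The list itself was higher in DKO and holds Hes5, so these ratios are descriptions.

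Lists closer to the axial bud showed no called gene in the DKO comparisons. Of 16 axial bud genes, 15 had a higher mean in the posterior DKO (median 0.23). An unadjusted p below 0.05 with a higher level was found for 1, against 5.27% of all genes. It was Cyp26a1 (0.38, adjusted p = 0.449), which degrades retinoic acid in the bud. In the anterior pieces 8 of these 16 genes could be tested, and 4 had an unadjusted p below 0.05 with a higher level (median 0.20). The 10 Wnt targets had medians of −0.04 in the anterior and −0.03 in the posterior DKO. Among them Axin2, a general readout of Wnt signalling, had 0.22 in the anterior pieces (adjusted p = 0.279) beside the 0.90 of Sp5. The notochord list had medians of 0.38 (7 genes tested, 6 with a higher mean) and 0.26 (8 genes, all higher). An unadjusted p below 0.05 with a higher level was found for 4 in the anterior and 1 in the posterior pieces. Shh was at 0.34 (adjusted p = 0.129) and Foxa2 at 0.38 (adjusted p = 0.187) in the anterior pieces. Over all genes such a p was found for 6.41% in the anterior and 5.27% in the posterior pieces. Neuron genes had medians of 0.22 and 0.35, with Neurog2, a proneural factor, at 0.45 (adjusted p = 0.103) in the anterior pieces.

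Other tissues that can express single members were read too. Medians in the anterior and posterior DKO were 0.20 and 0.34 for gut endoderm, 0.14 and 0.21 for surface ectoderm, 0.10 and 0.23 for germ cells, and 0.32 and 0.06 for neural crest. They were −0.66 and 0.49 for primitive erythroid cells, whose 7 genes summed to 962 to 4630 CPM in anterior controls and 1207 to 2021 CPM in anterior DKO. The germ cell gene Dppa3 was at or under 3 counts in every anterior library, and Pou5f1 likewise in the anterior DKO libraries. In the anterior DKO 5 of 6 neural crest genes had an unadjusted p below 0.05 with a higher level, against 6.41% of all genes. In the posterior DKO this held for 6 of 7 erythroid, 4 of 9 gut endoderm and 4 of 10 surface ectoderm genes, against 5.27% of all genes. None of the genes of these 5 lists passed the threshold in either DKO comparison, and their part in the levels of the 8 genes was not tested.

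**Figure D4:**
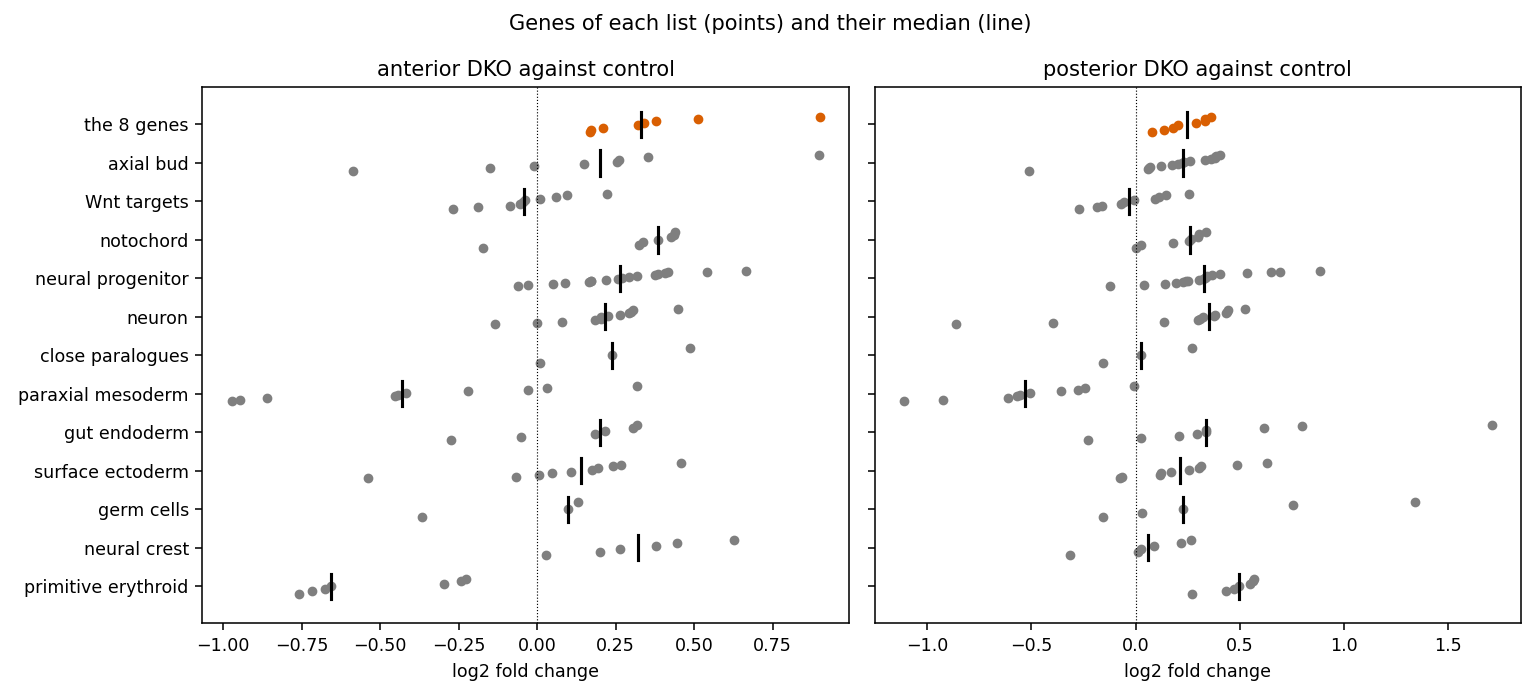
Log2 fold change of DKO against control (horizontal axes) for every tested gene of each list, as points, with the list median as a line, in the anterior (left) and posterior (right) pieces. The 8 genes, in colour, have medians of 0.33 and 0.25, and the paraxial mesoderm list has medians of −0.43 and −0.53.

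Somite number, the stage label of the embryos, was read after the values had been seen, because both embryos with 20 somites (control 2 and DKO 3) had the highest posterior T and Nkx1-2. The p-values for posterior T and Nkx1-2 therefore describe the pattern that prompted the fit and are not independent evidence for it. Beside genotype, each additional somite went with a log2 change of −0.16 in posterior T (SE 0.0292, unadjusted p = 0.000288, adjusted p = 0.157). Posterior Nkx1-2 had −0.21 per somite (SE 0.0420, unadjusted p = 0.000531, adjusted p = 0.193) and anterior Nkx1-2 −0.24 (SE 0.0499, unadjusted p = 0.000593, adjusted p = 0.111). Anterior Sp5 had −0.18 per somite (SE 0.0449, adjusted p = 0.145). Sox1 had −0.085 in the anterior (adjusted p = 0.165) and 0.072 in the posterior pieces (adjusted p = 0.619), which are opposite in sign. An unadjusted p below 0.05 was found for 4 of the 8 genes in the anterior pieces (12.9% of all genes) and 3 in the posterior pieces (6.42% of all genes).

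None of these slopes passed the threshold with edgeR (0.0328% of all genes in the anterior and 0.0126% in the posterior pieces), while DESeq2 called 3 anterior slopes (Nkx1-2, Sp5 and Sox1, against 2.34% of all genes) and 2 posterior ones (T and Nkx1-2, against 0.922%). Leaving out each embryo in turn kept the posterior slope of T between −0.18 and −0.11, the lowest size being without control 2, and that of Nkx1-2 between −0.24 and −0.18. Each of these fits still held control 2 or DKO 3, whose values had prompted the slope. The slopes of Sox3 were −0.0055 in the anterior and 0.0064 in the posterior pieces. With somite number in the fit, the difference of anterior Sp5 between genotypes was 0.90 (adjusted p = 0.0285), as large as without it.

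**Figure D5:**
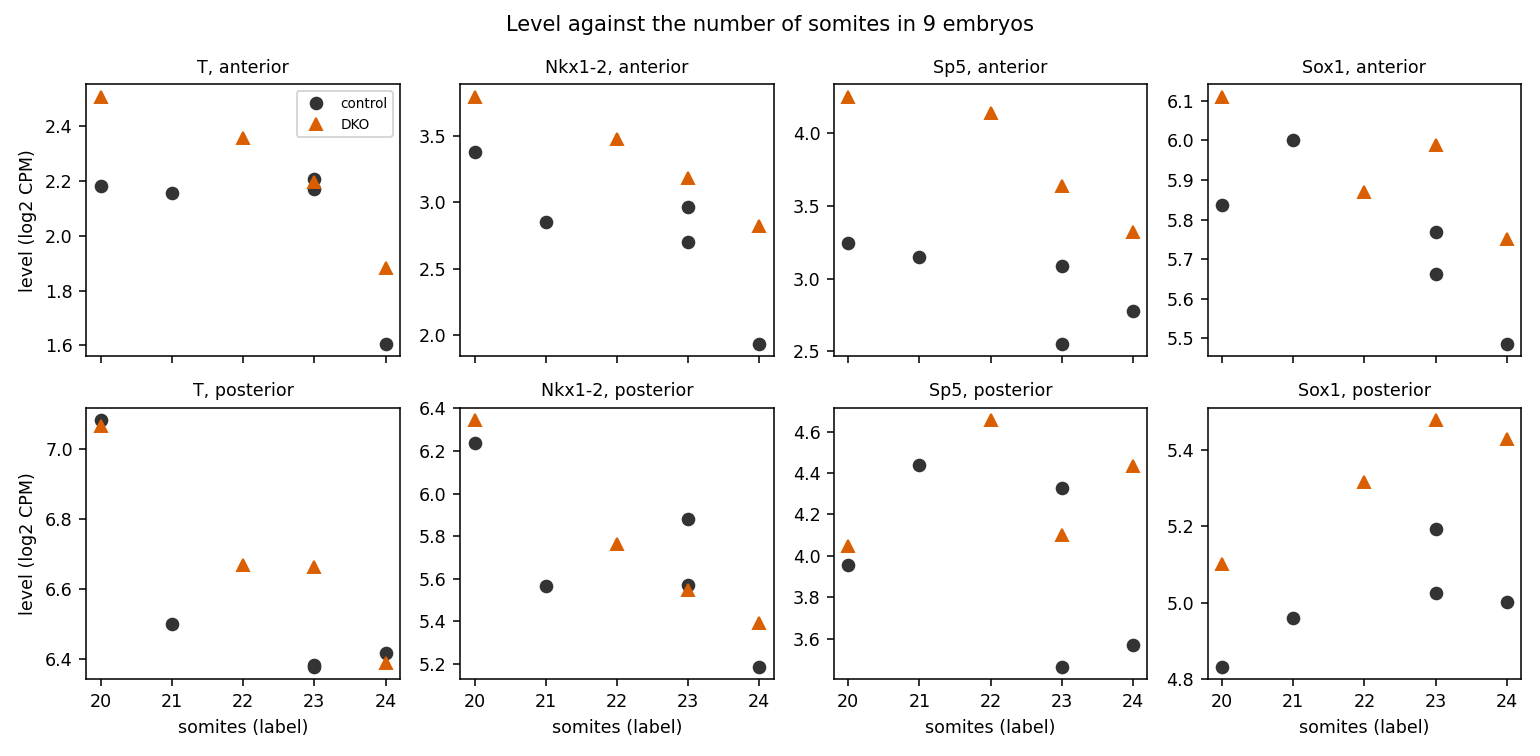
Level (vertical axes, log2 CPM) of T, Nkx1-2, Sp5 and Sox1 against the labelled number of somites (horizontal axes) in the anterior (top) and posterior (bottom) pieces of the 9 embryos, controls as circles and DKO as triangles. The embryos with 20 somites have the highest posterior T and Nkx1-2, and the anterior DKO points of Sp5 lie above the control points at 20, 23 and 24 somites.

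Some pairs of the genes varied together between embryos of a group, and others did not or varied in opposite directions. After removal of the 4 group means, T and Nkx1-2 had a Pearson correlation of 0.92 over the 9 anterior and 0.84 over the 9 posterior libraries. Sox2 and Sox1 had 0.75 and 0.68, and Sp5 and Sp8 had −0.01 in the anterior and 0.83 in the posterior pieces. T and Sox1 had 0.76 in the anterior and −0.81 in the posterior pieces. The anterior and posterior values of the same embryo had a correlation of 0.94 for Nkx1-2, 0.73 for Sp8, 0.53 for T and −0.50 for Sox1 over 9 embryos. These are descriptions over few libraries, and both genes of a pair were read in the same libraries.

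The genes with the most similar profile over the 18 libraries were taken from 11809 other protein-coding genes by Pearson correlation of log2 CPM. For T they were Peli3, Msgn1 and Cdx4 (0.995, 0.994 and 0.993), for Nkx1-2 Cldn9, Slc2a3 and Pcolce2 (0.984, 0.981 and 0.979), for Sp5 Tmem54, Ung and Chpf (0.877, 0.870 and 0.862), and for Sp8 Gbx2, Tesk2 and Fzd10 (0.921, 0.915 and 0.915). For Sox1 they were Tgfb1i1, Doc2a and Cp (0.955, 0.954 and 0.953), for Sox2 Nsg2, Prdm13 and Cp (0.964, 0.963 and 0.960), for Sox3 Nkx6-1, B3gat1 and Cp (0.951, 0.944 and 0.938), and for Sox21 Prdm13, Nkx6-1 and Alpk2 (0.958, 0.950 and 0.938). The libraries fall into 2 regions, so these values mostly describe a shared difference between the pieces. With the group means removed, the closest gene was Cpne7 for T (0.912), Wdr77 for Nkx1-2 (0.898), Zfp503 for Sp5 (0.873), Unc50 for Sp8 (0.853), Gid4 for Sox1 (0.818), Rab1a for Sox2 (0.812), Ier5 for Sox3 (0.857) and Zfand5 for Sox21 (0.867).

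Non-coding transcripts that overlap the SoxB genes without shared exons were read as separate rows. Sox2ot, within which Sox2 lies, was at 16.3 to 23.0 CPM in anterior controls, 19.6 to 25.3 CPM in anterior DKO, 4.90 to 9.23 CPM in posterior controls and 5.45 to 10.1 CPM in posterior DKO. Sox1ot was at 3.19 to 6.41, 5.20 to 7.33, 1.91 to 2.93 and 2.27 to 3.33 CPM in the same order. For both, the regions were separate within each genotype, and the genotypes overlapped within each region, as for Sox1 and Sox2 themselves.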

How the data were processed

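RNA sequencing of 18 libraries (poly(A) RNA, single-end reads) was deposited as 1 table of RSEM expected counts per Ensembl gene on GRCm38. The authors' counts are not scaled between libraries. CASAVA, cutadapt and RSEM are named in the submitters' processing notes, and the aligner and the strand setting are not given in the sources used here. Of 53465 gene IDs, 53360 were matched to GENCODE M21 for symbols, positions and exon lengths.

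Expected counts were rounded and tested in R 4.3.3 with edgeR 4.0.16 (filterByExpr with a minimum count of 10, TMM, glmQLFit, glmQLFTest, Benjamini-Hochberg adjustment over all genes tested, threshold 0.05). The SE is the log2 fold change divided by the square root of F. CPM used the scaling of all 18 libraries, and log2 CPM a prior count of 2. Only the groups compared entered a fit. The 2 pieces of an embryo were paired by genotype, sex label and somite number, since no label names the embryo, and over genes their deviations from group means correlated at 0.256 to 0.570, against −0.283 to 0.0916 for different embryos of a genotype. The embryo was therefore a block in an alternative. Other alternatives were RLE scaling, DESeq2 1.42.0, no filter, somite number as a covariate, 1 fit of 18 libraries and leaving out each embryo, and, added after the values were seen, the block without controls 1 and 5 and the slope of somite number. Floors of 3 counts reflect counting error alone, as PCR copies were not collapsed by identifiers. Scripts were first tested on simulated data.

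All 8 genes were always named. From a list, genes past the threshold in a DKO comparison were named, or else up to 2 with the smallest p, and in region comparisons up to 2 with the largest differences in each direction, except for 1 gene that is not reported here. The members and lists were chosen with earlier results of these data known.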

Additional observations from a re-analysis of the deposited data

Results flagged for a closer look

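In 32 groups of libraries (8 genes in 4 groups), 2 single libraries lay far from the rest of their group, where chance flags about 1 in 20 groups. T in anterior control 3 was at 2.96 CPM (38 counts), below the next value of 4.37 CPM, and this embryo had 24 somites. T in posterior control 2 was at 136 CPM, above the next value of 90.4 CPM, and this embryo had 20 somites. DKO 3, also with 20 somites, was at 134 CPM in the posterior piece.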

How the results depend on the processing

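The 8 genes kept their calls between regions in every alternative run (8 of 8 in controls, 7 of 8 in DKO), and with the embryo as a block no call among them changed. The counts over all genes ran from 2922 of 15379 to 5136 of 15294 in controls. In DKO they ran from 1728 of 15513 to 3393 of 15777. Without the filter they were 3633 of 31118 and 2879 of 30638. Of the alternative values of their log2 fold changes, 470 kept direction and side of the threshold, 8 passed it and 10 reversed. The interaction of Sox21 was 0.019 with the embryo as a block without controls 1 and 5, and the other reversed values came from leaving out 1 embryo. Those ranges were −0.15 to 0.24 for posterior Nkx1-2, and for the interaction −0.10 to 0.10 for T and −0.11 to 0.057 for Sox21. Slopes per somite that reversed ranged from −0.0023 to 0.046 (anterior Sp8), −0.032 to 0.021 (anterior Sox3), −0.036 to 0.00020 (anterior Sox21), −0.12 to 0.0068 (posterior Sp5), −0.0040 to 0.044 (posterior Sox2) and −0.018 to 0.042 (posterior Sox3). Of the 8 genes, 0 were called in the anterior DKO comparison, but 3 with DESeq2 (296 of 15238 genes) and 2 without the filter (83 of 30326). With somite number as a covariate it was 1 (84 of 15238), and leaving out an embryo 0 to 1 (57 of 15427 genes without DKO 2). In the posterior comparison 0 were called, but 1 with DESeq2 (161 of 15936 genes). For the somite slopes these were 0, but 3 (anterior) and 2 (posterior) with DESeq2 and 1 and 2 without the filter.

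Counts over all genes moved more. The anterior DKO comparison called 6 genes, 296 with DESeq2, 83 without the filter, 84 with somite number, 19 with all 18 libraries and 1 to 57 leaving out an embryo. The posterior one called 2, 161, 14, 7, 51 and 2 to 24. The interaction called 0 genes, 10 with DESeq2 and 0 to 1 leaving out an embryo. The DKO region comparison called 2913, and 1728 (without DKO 1) to 2550 leaving out an embryo. The somite slopes called 5 anterior genes, 356 with DESeq2, 162 without the filter and 0 to 134 leaving out an embryo, and 2, 147, 29 and 0 to 29 posterior genes. The cause of these differences was not tested. The groups held 4 and 5 embryos, and the lowest count of the 8 genes in any library was 38.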
